A study of Mus musculus with 6 samples.

Results

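The genes described here are 34 endothelial identity and signalling genes: surface markers, receptors, ligands, transcription factors and enzymes by which the lining cells of blood vessels are recognised and regulated. They were taken by symbol from the deposited table of 18158 features, and all 34 were found. The study sequenced RNA of heart ventricles from 6 outbred CD1 mice that were 3 months old. The vehicle group (3 mice) had received PBS, and the Paro/Neo group (3 mice) a combination of the aminoglycoside antibiotics paromomycin and neomycin, given intraperitoneally at 150 mg/kg 2 times daily. Treatment lasted 14 days, and the labels do not say whether the dose is that of each drug or of both. They name no transgene, injury or surgery, nor the sex of the mice, and each library is 1 mouse. Per the design text, the drugs are studied as suppressors of Meis1 and Hoxb13, factors known for restraining cardiomyocyte division, and the comparison made here is of endothelial transcripts between the groups.

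Endothelial cells line every vessel and chamber of the heart and form the dense capillary bed around the cardiomyocytes. Their identity rests on ETS factors such as Erg and Fli1 and on SoxF factors such as Sox17 and Sox18. Their growth and quiescence are set by VEGF acting on Kdr, with Flt1 as a decoy, by angiopoietins acting on Tek and its partner Tie1, by Notch signals through Dll4, and by flow, which acts in part through the nitric oxide synthase Nos3. Apelin, a peptide made by sprouting tip cells, and its receptor Aplnr are a further signalling pair of growing vessels.

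Values are in TPM, the share of each transcript in its library corrected for gene length. The libraries held at least 9556387 to 15969980 reads, inferred from the steps between TPM values. The 34 genes had 40 to 10106 inferred reads each per library, which are lower limits. For Sox17, Sox18 and Apln the inferred number was under 100 in some library. Cardiomyocyte markers, which define the labelled tissue, summed to 134563 to 143959 TPM in vehicle and 128527 to 157783 TPM in Paro/Neo hearts, and the 34 endothelial genes to 1931 to 2153 TPM in vehicle and 1519.6 to 1841 TPM in Paro/Neo hearts. Abundant genes dominate that sum: Cav1, which other cells express too, made up 23.3% of the mean level of the 34 over both groups. Paro/Neo replicate 1 stood apart, with a mean Pearson correlation with the other libraries of 0.975, against 0.981 to 0.985 for the rest, across 12409 genes. Changes are differences of the mean log2(TPM + 1), Paro/Neo minus vehicle; adding 1 shrinks the change of low genes. They were tested with limma over 12409 genes, those that reached 1 TPM in 3 libraries or more, and an adjusted p (Benjamini-Hochberg) under 0.05 was called. All 34 genes passed that filter. No exact permutation test of a single gene is given, since 3 mice against 3 cannot reach a p below 0.1.

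Most of the endothelial genes were at a lower level in Paro/Neo hearts, and none passed the test. Of the 34, 29 had a change below 0 and 5 above, where 53.7% of all tested genes were below 0. The median change was -0.29, against -0.017 over all tested genes, and single values ran from -0.76 for Aplnr to 0.28 for Vcam1. Limma called 0 of the 34, where it called 0.137% of all tested genes (0.121% higher and 0.0161% lower), and the smallest adjusted p was 0.209. Without adjustment 8 of the 34 were lower and 1 was higher at p under 0.05, against 4.37% and 3.24% of all tested genes. All 3 Paro/Neo hearts lay below all 3 vehicle hearts for 8 genes, 23.5% of the 34, against 8.22% of all tested genes. These were Aplnr, Nos3, Icam2, Cldn5, Cd34, Cav1, Pecam1 and Kdr. The groups were apart in the other direction for Vcam1, 2.94% of the 34 against 6.04% of all tested genes. In whole tissue, fewer endothelial cells and less RNA of these genes per cell cannot be told apart. Without Paro/Neo replicate 1 the median change was -0.096, with 26 of 34 below 0.

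**Figure D1:**
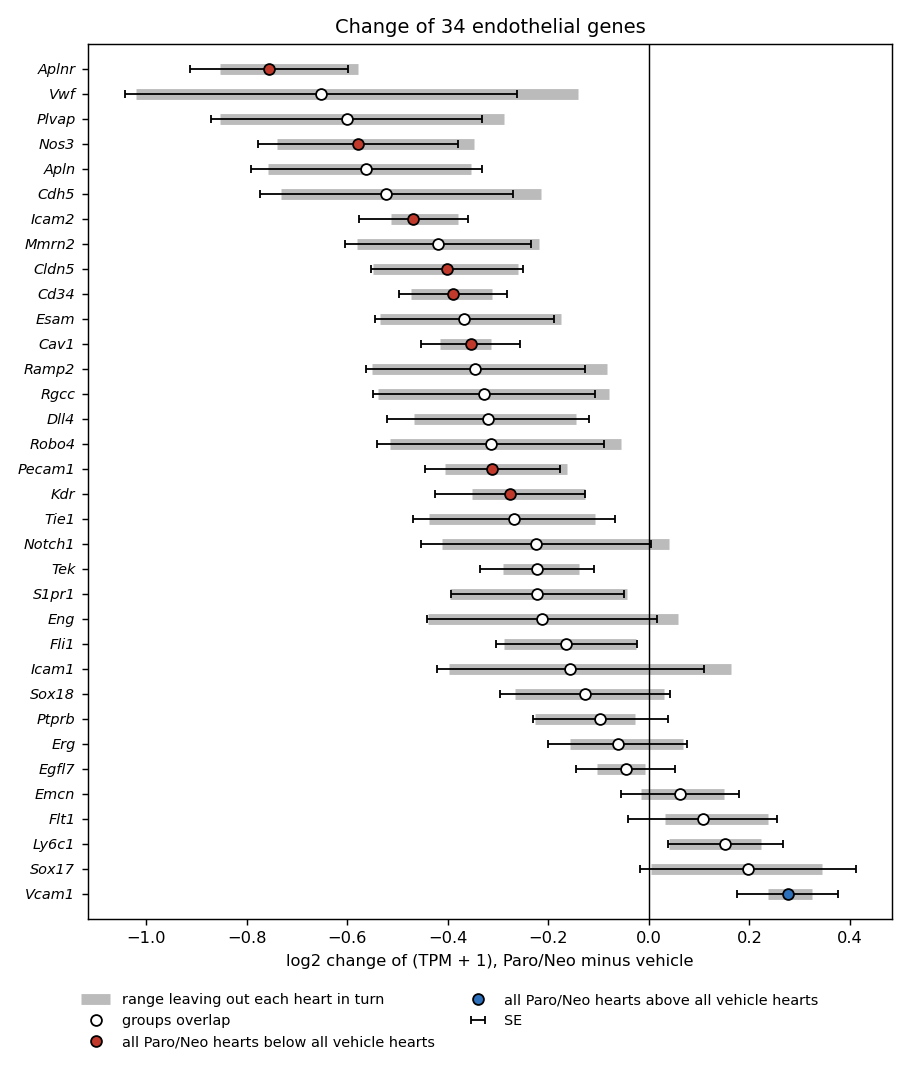
Change of log2(TPM + 1), Paro/Neo minus vehicle (x axis), of each of the 34 endothelial genes (points, SE as black bars), with the range over fits that leave out each heart in turn (grey). Points run from -0.76 (Aplnr) to 0.28 (Vcam1), the 8 red points are genes with all Paro/Neo hearts below all vehicle hearts, and the grey range crosses 0 for 6 genes.

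The promoters of 3 genes are shown so that the letters bound by the endothelial factors among the 34 can be seen next to the values. RefSeq promoter entries (GRCm38.p6) were at hand for 18 of the 34 genes. Among these, Cav1 and Cd34 were the lower genes with the smallest p, and Ly6c1 the higher one. The runs are upstream of the annotated start, 5′ to 3′ on the gene's strand, at chr6:17306085-17306334 (plus strand), chr1:194938571-194938818 (plus strand) and chr15:75048838-75049087 (minus strand). Capitals mark the ETS core GGAA and the SOX letters ACAAT on either strand (TTCC and ATTGT on the other).
Cav1: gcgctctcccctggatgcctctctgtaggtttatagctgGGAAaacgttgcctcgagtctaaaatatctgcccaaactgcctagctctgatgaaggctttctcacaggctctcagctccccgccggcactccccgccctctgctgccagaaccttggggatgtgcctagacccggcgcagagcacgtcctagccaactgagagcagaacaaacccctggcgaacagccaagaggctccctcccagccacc
Cd34: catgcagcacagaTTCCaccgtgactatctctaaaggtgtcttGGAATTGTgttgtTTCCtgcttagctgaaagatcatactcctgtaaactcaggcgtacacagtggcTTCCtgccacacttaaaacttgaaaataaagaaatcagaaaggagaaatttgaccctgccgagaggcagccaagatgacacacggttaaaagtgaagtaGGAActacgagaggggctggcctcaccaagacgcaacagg
Ly6c1: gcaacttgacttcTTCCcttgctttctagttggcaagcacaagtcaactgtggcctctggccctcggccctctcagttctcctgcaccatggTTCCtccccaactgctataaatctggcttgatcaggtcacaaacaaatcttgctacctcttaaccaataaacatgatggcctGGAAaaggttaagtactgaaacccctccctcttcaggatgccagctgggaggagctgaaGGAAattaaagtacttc
The Cav1 run holds 1 ETS core, the Cd34 run 5 and the Ly6c1 run 4, and the 1 SOX match, in Cd34, overlaps an ETS core. RefSeq holds a second Cav1 entry further downstream, not printed here, with 3 ETS cores. An ETS core was present in 22 of 24 promoter entries of the endothelial genes, 91.7%, against 93.4% of 32851 entries of all genes in 250 upstream bases. The SOX letters were in 20.8% against 27.7%, and the longer ETS letters CCGGAAG in 0 of 24 entries against 6.91%. These matches describe letters in a window, not binding.

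Among genes of cell junctions and surface identity, 5 of 7 had a change below 0. Pecam1, the adhesion molecule CD31 by which endothelium is stained, is a gene of chromosome 11, bases 106654217 to 106750628 (GRCm38, GENCODE M21). It was at 145, 147 and 151 TPM in vehicle replicates 1 to 3 and at 96.3, 135 and 128 TPM in Paro/Neo replicates 1 to 3. The groups did not overlap, and Paro/Neo replicate 1 was the lowest heart. The change was -0.31 ± 0.13 (SE; limma adjusted p 0.651), and -0.16 without that heart. Cdh5, VE-cadherin of the adherens junction, was at 75.0, 93.5 and 71.2 TPM against 35.5, 63.0 and 73.9 TPM, vehicle first. Paro/Neo replicate 1 was again the lowest heart while replicate 3 lay among the vehicle hearts, and the change of -0.52 ± 0.25 was -0.21 without replicate 1.

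Cd34, a sialomucin of capillary endothelium and of some stromal cells, was at 198, 212 and 197 TPM against 153, 173 and 138 TPM. The groups did not overlap and Paro/Neo replicate 1 lay between the other treated hearts. The mean was 202 TPM ± 8.89 against 155 TPM ± 17.6 (SD, 3 hearts each), and the change of -0.39 ± 0.11 (limma adjusted p 0.412) was -0.38 without replicate 1. Cldn5, a tight junction protein, was at 20.9 TPM ± 4.35 against 15.4 TPM ± 0.415, with no overlap, and its change of -0.40 ± 0.15 was -0.26 without vehicle replicate 1. Esam, a junctional adhesion molecule, had a change of -0.37 ± 0.18 with overlapping groups, and -0.18 without Paro/Neo replicate 1.

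The remaining surface genes were above 0. Emcn, a mucin of capillary and venous endothelium, was at 148 TPM ± 17.4 against 154 TPM ± 13.1, and its change of 0.061 ± 0.12 turned below 0 without vehicle replicate 1 and without Paro/Neo replicate 3. Ly6c1, a GPI-anchored protein of capillary endothelium, was at 116, 117 and 118 TPM against 118, 123 and 152 TPM. Paro/Neo replicate 3 stood above the other 5 hearts, and the change of 0.15 ± 0.12 was 0.041 without it. Its near-identical neighbour Ly6c2 was at 0.457, 0 and 8.89 TPM against 8.33, 5.97 and 0.771 TPM, and since reads of the pair may have been split, the value of Ly6c1 is uncertain.

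**Figure D2:**
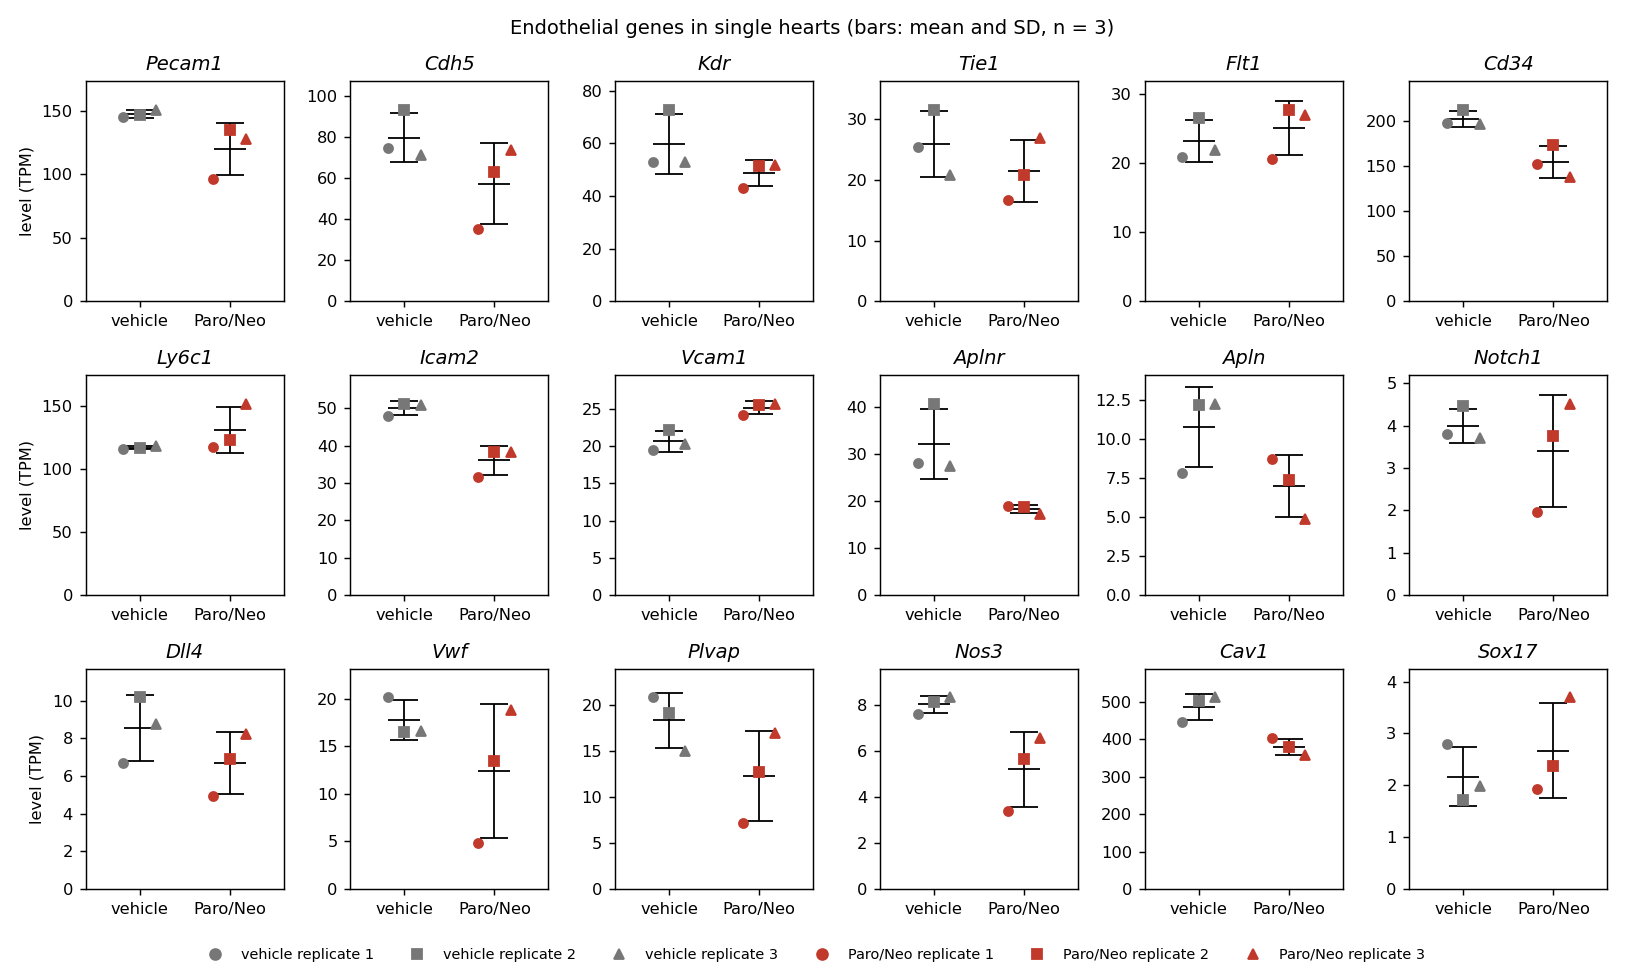
Level in TPM (y axes, from 0) of 18 of the endothelial genes in each vehicle (grey) and Paro/Neo (red) heart, with group mean and SD (n = 3) and marker shapes for replicates 1 to 3. The red points of Aplnr, Icam2, Cd34 and Cav1 lie below all grey points, whereas in Cdh5, Vwf and Plvap the red circle of replicate 1 lies well below the other red points.

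Among the VEGF and angiopoietin receptors 4 of 5 were below 0. Kdr, the main signalling receptor for VEGF-A, was at 53.1, 72.8 and 53.1 TPM against 43.0, 51.5 and 51.6 TPM. The groups were narrowly apart, and the change was -0.28 ± 0.15 (limma adjusted p 0.708), and -0.13 without vehicle replicate 2, the highest heart. Flt1, the decoy receptor, was at 20.9, 26.6 and 21.9 TPM against 20.6, 27.7 and 26.9 TPM. Its groups overlapped, with a change of 0.11 ± 0.15 that ran from 0.031 to 0.24 as each heart was left out. Tek, the angiopoietin receptor, was at 55.0 TPM ± 3.69 against 47.1 TPM ± 5.06, a change of -0.22 ± 0.11, or -0.14 without Paro/Neo replicate 1. Its partner Tie1 was at 25.4, 31.5 and 20.7 TPM against 16.6, 20.8 and 26.8 TPM, and Paro/Neo replicate 3 was above 2 of the vehicle hearts. Its change of -0.27 ± 0.20 ran from -0.44 to -0.11 as each heart was left out. Ptprb, the phosphatase VE-PTP that restrains Tek, was at 31.6 TPM ± 4.84 against 29.3 TPM ± 2.06, a change of -0.097 ± 0.13 with a range of -0.23 to -0.028.

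Aplnr, the apelin receptor, had the largest change and the smallest p of the 34. This G protein-coupled receptor is encoded on chromosome 2, bases 85136225 to 85139923. Vehicle hearts were at 28.1, 40.7 and 27.5 TPM and Paro/Neo hearts at 18.9, 18.7 and 17.3 TPM. The treated hearts lay close together, all below the lowest vehicle heart. The mean was 43.0% lower, a change of -0.76 ± 0.16 (limma adjusted p 0.209, and 0.112 to 0.392 over the alternatives), and -0.78 without Paro/Neo replicate 1. Apln, which encodes the ligand, was at 7.80, 12.2 and 12.3 TPM against 8.72, 7.40 and 4.86 TPM, on 99 to 263 inferred reads per library. Vehicle replicate 1 lay among the treated hearts, and Paro/Neo replicate 1 was the highest treated heart. The change was -0.56 ± 0.23 (limma adjusted p 0.625), and -0.35 without Paro/Neo replicate 3.

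In the other surface receptors the treated hearts stood in the order of Cdh5. S1pr1, a sphingosine-1-phosphate receptor that stabilises junctions, was at 31.0, 40.2 and 51.2 TPM in the Paro/Neo hearts and 44.2 to 50.2 TPM in vehicle. Ramp2, which forms an adrenomedullin receptor with Calcrl, was at 34.02, 53.5 and 66.0 TPM against 57.4 to 66.5 TPM in vehicle. Eng, the BMP co-receptor endoglin, was at 31.8, 49.6 and 64.4 TPM against 48.8 to 58.8 TPM. Robo4, a guidance receptor that stabilises vessels, was at 9.48, 15.3 and 18.8 TPM against 15.4 to 20.1 TPM. In all 4 genes Paro/Neo replicate 1 was below the vehicle range and replicate 3 was within or above it. Their changes of -0.22, -0.35, -0.21 and -0.32 were -0.043, -0.083, 0.057 and -0.056 without replicate 1. Exons of Ramp2 and Eng overlap those of other listed genes, as do exons of Cd34, Dll4, Egfl7 and Nos3. How shared reads were counted is not given in the sources used here, so the values of these 6 genes are uncertain to that extent.

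The adhesion molecules that leukocytes bind lay on both sides of 0. Icam2, which resting endothelium carries constitutively, is a gene of chromosome 11, bases 106377656 to 106388075. It was at 48.0, 51.2 and 50.9 TPM against 31.6, 38.2 and 38.3 TPM. All treated hearts lay below all vehicle hearts, and the mean was 28.0% lower. The change was -0.47 ± 0.11 (limma adjusted p 0.261), and -0.38 without Paro/Neo replicate 1. Vcam1, an integrin ligand that cytokines induce, was at 19.5, 22.1 and 20.3 TPM against 24.2, 25.6 and 25.7 TPM. It was higher in every treated heart, replicate 1 included, with a change of 0.28 ± 0.10 (limma adjusted p 0.56). Icam1, which cytokines also induce, was at 11.1 TPM ± 1.54 against 10.4 TPM ± 4.12. Its treated hearts spread beyond the vehicle range on both sides, and the change turned from -0.16 to 0.16 without replicate 1.

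Both genes of the Notch pair overlapped between groups. Dll4, the ligand of arterial and tip cells, was at 6.69, 10.2 and 8.78 TPM against 4.94, 6.88 and 8.23 TPM, a change of -0.32 ± 0.20, or -0.15 without Paro/Neo replicate 1. Notch1, its receptor, was at 3.81, 4.46 and 3.71 TPM against 1.95, 3.75 and 4.52 TPM. Paro/Neo replicate 1 was the lowest heart in each gene, and the change of Notch1 turned from -0.22 to 0.040 without it.

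The secreted proteins were all below 0, with overlapping groups. Vwf, von Willebrand factor, is stored for haemostasis by endothelium of larger vessels and is also made by platelets' precursors. It was at 20.1, 16.5 and 16.6 TPM against 4.83, 13.5 and 18.8 TPM. Paro/Neo replicate 1 was far below the other hearts, and the change of -0.65 ± 0.39 was -0.14 without it. Mmrn2, an endothelial matrix protein, was at 31.2 TPM ± 3.12 against 23.5 TPM ± 5.98, a change of -0.42 ± 0.19, or -0.22 without replicate 1. Egfl7, a matrix factor whose gene also holds the microRNA miR-126, was at 64.5 TPM ± 4.43 against 62.4 TPM ± 3.10, a change of -0.046 ± 0.099 with a range of -0.10 to -0.0081 as each heart was left out.

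The 4 transcription factors had a median change of -0.095, with 3 below 0. Erg, at 28.4 TPM ± 4.87 against 27.0 TPM ± 2.20, and Fli1, at 31.0 TPM ± 0.553 against 27.9 TPM ± 5.19, are ETS factors of endothelial identity. Their changes were -0.062 ± 0.14 and -0.16 ± 0.14, and -0.031 and -0.026 without Paro/Neo replicate 1. Sox18, a SoxF factor, was at 14.3 TPM ± 3.20 against 12.9 TPM ± 1.57, a change of -0.13 ± 0.17, or -0.035 without that heart. Sox17, the arterial SoxF factor and the lowest of the 34 genes in vehicle, was at 2.80, 1.71 and 1.99 TPM against 1.93, 2.37 and 3.70 TPM on 40 to 98 inferred reads per library. Its change of 0.20 ± 0.21 was 0.0046 without Paro/Neo replicate 3, and the groups of all 4 factors overlapped.

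The genes of caveolae, diaphragms and intracellular proteins were all below 0, with a median of -0.47. Cav1, the coat protein of caveolae and the most abundant of the 34, is a gene of chromosome 6, bases 17306335 to 17341452. It was at 446, 502 and 513 TPM against 403, 379 and 359 TPM. The groups did not overlap, and Paro/Neo replicate 1 was the treated heart nearest to vehicle. The change was -0.35 ± 0.098 (limma adjusted p 0.409), and -0.40 without it. Fibroblasts, adipocytes and smooth muscle express Cav1 too.

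Nos3, the endothelial nitric oxide synthase, was at 7.61, 8.14 and 8.34 TPM against 3.39, 5.65 and 6.55 TPM. All treated hearts lay below all vehicle hearts, and the mean was 35.3% lower. The change was -0.58 ± 0.20 (limma adjusted p 0.522), and -0.35 without Paro/Neo replicate 1. Plvap, which forms the diaphragms of caveolae and fenestrae, was at 20.8, 19.1 and 15.03 TPM against 7.17, 12.7 and 16.9 TPM. Rgcc, a cell cycle regulator, was at 42.6 TPM ± 5.54 against 34.8 TPM ± 10.97. In both, Paro/Neo replicate 3 lay within the vehicle range. Their changes of -0.60 ± 0.27 and -0.33 ± 0.22 were -0.29 and -0.079 without replicate 1.

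**Figure D3:**
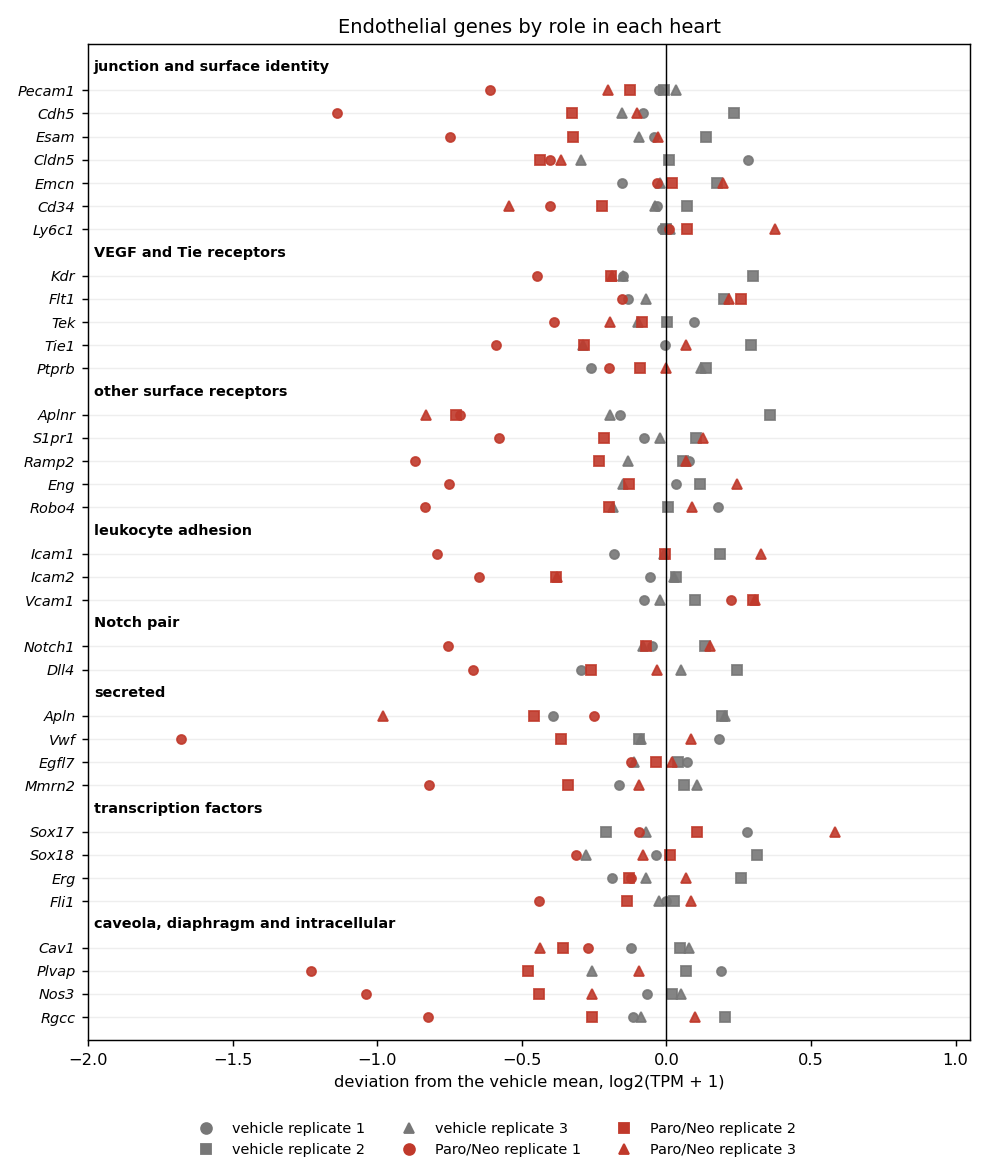
Deviation of each heart from the vehicle mean (x axis, log2(TPM + 1)) for the 34 endothelial genes in rows by role, for vehicle (grey) and Paro/Neo (red) replicates 1 to 3 (circle, square, triangle). Paro/Neo replicate 1 is the lowest heart for 23 of the 34 genes, and the triangles of Paro/Neo replicate 3 fall on both sides of 0.

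The treated hearts were unlike each other. The median deviation of the 34 genes from the vehicle mean was -0.58, -0.21 and 0.0087 in the Paro/Neo hearts, numbered 1 to 3, and -0.054, 0.099 and -0.070 in the vehicle hearts. Paro/Neo replicate 1 was below the lowest vehicle heart for 27 genes (79.4%, against 38.8% of all tested genes). Replicate 2 was so for 19 genes (55.9% against 28.3%) and replicate 3 for 10 (29.4% against 24.4%). In replicate 3 a further 10 genes were above the highest vehicle heart, 29.4% against 27.8% of all tested genes, which is near the background. Without replicate 3 the median change was -0.40 with 30 genes below 0. Without vehicle replicate 2, the highest heart for 12 of the 34 genes, it was -0.21 with 27 below 0. For 5 genes, Aplnr, Icam2, Cd34, Cav1 and Vcam1, the change moved by no more than 1.5 times whichever heart was left out, and for the other 29 it moved further in at least 1 such fit.

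GC content of the transcripts went with the deviations of some libraries, of both groups. Across the 34 genes, which share each library, the Spearman coefficient of deviation with GC content was -0.48, -0.29 and -0.015 in Paro/Neo replicates 1 to 3. Over 12321 genes it was -0.33, -0.044 and 0.031. Taken instead as deviations from the mean of all 6 hearts, the coefficients over these genes were 0.18, 0.30 and -0.12 in vehicle replicates 1 to 3 and -0.35, 0.095 and 0.17 in Paro/Neo replicates 1 to 3. The median GC content was 53.0% in the 34 genes and 49.9% in all tested genes. With each library corrected for GC content the median change of the 34 was -0.25, with 29 below 0. The part of depth or RNA quality was not tested.

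Other endothelial genes, not among the 34, were also mostly below 0, and limma called none. Of 19 other pan-endothelial markers 16 were below 0, with a median of -0.17. Ctla2a, a protease inhibitor gene, was at 67.9, 94.5 and 72.2 TPM against 55.4, 53.9 and 47.0 TPM, and Cd93, a lectin-like receptor, at 38.7, 50.04 and 41.9 TPM against 26.2, 35.8 and 32.8 TPM. In both, every treated heart was below every vehicle heart, as in 4 of the 19 markers (21.1%, against 8.22% of all tested genes). All 12 other transcription factors of endothelium were below 0, with a median of -0.29. The ETS factors Ets1, at 51.8 TPM ± 5.55 against 40.8 TPM ± 0.571, and Elk3, at 34.1 TPM ± 3.35 against 27.4 TPM ± 2.80, had the smallest p among them. Without Paro/Neo replicate 1 the medians were -0.10 for the markers and -0.11 for the factors.

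Genes that mark kinds of vessel had medians of -0.045 (7 capillary genes), -0.087 (8 arterial), -0.22 (4 venous), -0.085 (5 endocardial) and -0.14 (6 lymphatic). Without Paro/Neo replicate 1 these were 0.11, -0.026, 0.025, 0.012 and 0.0065, so that 4 of 5 turned above 0. The capillary lipid carrier Fabp4 was at 3821 TPM ± 181 against 3383 TPM ± 262 with groups apart, and Tcf15, a factor of heart capillaries, at 14.3 TPM ± 0.882 against 17.5 TPM ± 4.10. Of arterial genes, the netrin receptor Unc5b was at 3.94 TPM ± 0.812 against 3.06 TPM ± 0.330 and the elastic fibre gene Fbln5 at 13.6 TPM ± 1.39 against 11.8 TPM ± 2.46. On the venous list, the proteoglycan gene Bgn, which fibroblasts express too, was at 283 TPM ± 41.6 against 203 TPM ± 70.8, and the ephrin receptor Ephb4 at 21.9 TPM ± 2.23 against 17.96 TPM ± 5.16. Of endocardial genes, Tmem100 was at 16.7 TPM ± 2.70 against 11.8 TPM ± 2.35 and the natriuretic peptide receptor Npr3 at 19.5 TPM ± 3.96 against 22.8 TPM ± 3.04. The lymphatic genes Mmrn1, at 8.94 TPM ± 0.714 against 7.14 TPM ± 1.07, and Lyve1, at 17.9 TPM ± 1.11 against 22.2 TPM ± 4.93, lay on opposite sides of 0.

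Of the tested genes in the related pathways, 64 of 82 were below 0, with a median of -0.10, and limma called none. S1pr3, a sphingosine-1-phosphate receptor that mural cells carry as well, was at 15.9, 19.2 and 17.2 TPM against 5.65, 9.23 and 10.8 TPM, with no overlap and a change of -0.98 ± 0.21 (limma adjusted p 0.218). Calcrl, the partner of Ramp2, was at 44.9 TPM ± 5.44 against 36.8 TPM ± 2.20. The median of the 9 apelin, adrenomedullin and S1P genes was -0.062. Of 12 VEGF and angiopoietin genes 9 were below 0 (median -0.062). The VEGF co-receptors Nrp2 and Nrp1 were at 14.4 TPM ± 2.17 against 10.04 TPM ± 1.61 and at 135 TPM ± 14.00 against 108 TPM ± 23.3. Of 14 Notch genes 13 were below 0 (median -0.12, and -0.0082 without Paro/Neo replicate 1). The Notch target Heyl was at 10.3 TPM ± 2.58 against 6.796 TPM ± 1.41, and Mfng, which modifies Notch receptors, at 6.63 TPM ± 0.604 against 5.07 TPM ± 0.861.

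The 5 caveola partners of Cav1 were all below 0, with a median of -0.35, and -0.19 without Paro/Neo replicate 1. Ehd2, an ATPase of the caveola neck, was at 66.1 TPM ± 9.18 against 44.8 TPM ± 12.7, and the coat gene Prkcdbp (Cavin3) at 41.7 TPM ± 4.38 against 32.7 TPM ± 5.34, both with groups apart. Treated hearts lay below all vehicle hearts in 3 of the 5 partners, 60.0% against 8.22% of all tested genes. Of 10 genes of nitric oxide and cGMP signalling 7 were below 0 (median -0.057, and 0.063 without replicate 1). Ddah1, which degrades a natural inhibitor of nitric oxide synthases, was at 9.84, 9.19 and 11.3 TPM against 5.87, 7.26 and 4.12 TPM, with no overlap. Gucy1b3, a subunit of the nitric oxide receptor, was at 26.6 TPM ± 1.54 against 22.5 TPM ± 2.63. Of 11 endothelial BMP genes 6 were below 0 (median -0.0029). The BMP target Id1 was at 54.5 TPM ± 1.85 against 45.2 TPM ± 3.20 and the inhibitory Smad6 at 3.92 TPM ± 0.438 against 2.92 TPM ± 0.655. Of 9 leukocyte adhesion partners 5 were below 0 (median -0.044). The junctional molecule Jam3 was at 29.4 TPM ± 1.70 against 25.3 TPM ± 0.840 and the leukocyte selectin ligand Selplg at 1.31 TPM ± 0.507 against 2.06 TPM ± 0.495.

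**Figure D4:**
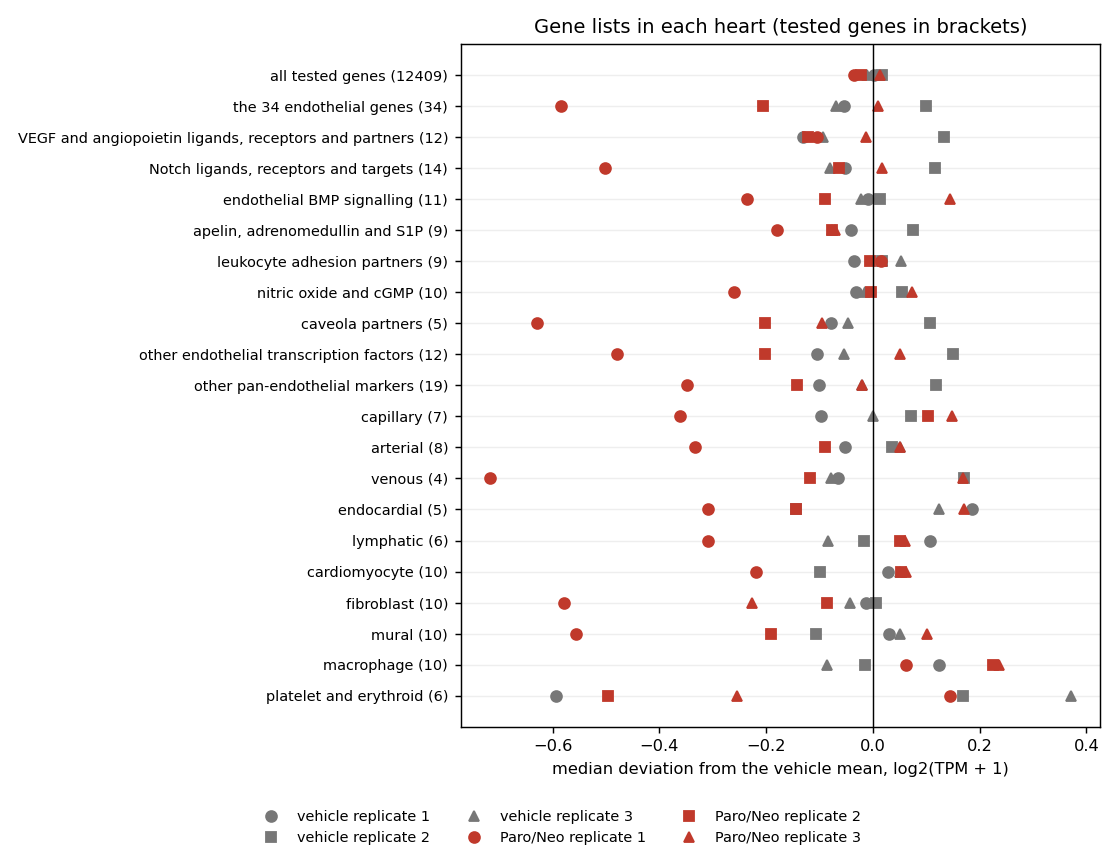
Median deviation from the vehicle mean (x axis, log2(TPM + 1)) of each gene list with at least 4 tested genes, in each vehicle (grey) and Paro/Neo (red) heart, with the number of tested genes in brackets. The red circle of Paro/Neo replicate 1 lies at -0.58 for the 34 endothelial genes and for fibroblast genes and at -0.56 for mural genes, and all tested genes lie between -0.036 and 0.017.

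Limma called no marker of the other cell types. All 10 fibroblast markers were below 0, with medians of -0.58, -0.086 and -0.23 in Paro/Neo replicates 1 to 3. They summed to 3889 to 4018 TPM in vehicle and 3005 to 3789 TPM in Paro/Neo hearts. Their median change was -0.29, the same as in the 34 endothelial genes. Without Paro/Neo replicate 1 it was -0.17, against -0.096 in the 34. Every treated heart was below every vehicle heart for 5 of the 10 fibroblast markers, against 8 of the 34. The lower level was thus not limited to endothelial genes. Col3a1, a fibrillar collagen gene, was at 219 TPM ± 3.84 against 129 TPM ± 42.5, and Col1a2, another, at 88.6 TPM ± 2.33 against 54.4 TPM ± 21.1. The 10 mural markers, of pericytes and smooth muscle, had medians of -0.56, -0.19 and 0.10. Their summed level went the other way in replicate 1, at 774, 554 and 531 TPM in Paro/Neo replicates 1 to 3 and 562 to 668 TPM in vehicle. Pdgfrb, a pericyte receptor, was at 15.9 TPM ± 1.06 against 12.4 TPM ± 4.42, and Cnn1, of smooth muscle, at 1.10 TPM ± 0.772 against 1.86 TPM ± 0.483. Cardiomyocyte markers had medians of -0.22, 0.053 and 0.062, with Ryr2 at 221 TPM ± 6.74 against 172 TPM ± 42.8 and Myl3 at 9927, 9569 and 9340.3 TPM against 13114, 11295 and 11552 TPM.

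The medians of macrophage and of platelet and erythroid markers were above 0 in Paro/Neo replicate 1. Macrophage markers were above 0 for 9 of 10 genes and summed to 578 to 708 TPM in vehicle and 686 to 724 TPM in Paro/Neo hearts, with Fcgr1 at 2.13 TPM ± 0.702 against 4.51 TPM ± 0.961 and Mrc1 at 26.2 TPM ± 1.19 against 31.0 TPM ± 2.85. Lymphocyte markers summed to 2.47 to 4.81 TPM in vehicle and 4.66 to 6.89 TPM in Paro/Neo hearts, and 1 of 10, Cd79b, was tested. Platelet and erythroid markers summed to 1867 to 4160.4 TPM in vehicle and 2064 to 3416 TPM in Paro/Neo hearts, with medians of 0.15, -0.50 and -0.26, and Gp1bb and Pf4 were at 2.10 TPM ± 0.125 against 1.51 TPM ± 0.488 and at 38.5 TPM ± 2.98 against 36.1 TPM ± 5.45. Mesothelial markers summed to 10.2 to 12.4 TPM in vehicle and 4.76 to 8.04 TPM in Paro/Neo hearts, and 2 of 7 were tested. These were Aldh1a2, at 6.23 TPM ± 0.934 against 3.13 TPM ± 0.565, and Wt1, at 2.37 TPM ± 0.372 against 1.45 TPM ± 0.311. Adipocyte markers summed to 8.31 to 10.5 TPM in vehicle and 5.03 to 12.9 TPM in Paro/Neo hearts, with Cfd at 5.62 TPM ± 0.987 against 3.50 TPM ± 2.47 and Adipoq at 2.59 TPM ± 0.392 against 2.82 TPM ± 1.08. None of these lists had a marker at 0 in all 6 libraries, and the part of other cells in the endothelial values was not tested.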

How the data were processed

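The deposited table holds 1 column of values for each of the 6 mice. Tissue was powdered frozen, RNA with an integrity number above 7 was kept, and stranded mRNA libraries were made, per the labels' protocols. The authors' values are in TPM over 18158 features. Tools named by the submitters' processing notes, with no role given, are edgeR, featureCounts, Subread, STAR 2.5.3a and FastQC 0.11.5, with build mm10. Annotation, strand setting and filters were not found in these sources. Columns were matched by sample description, and replicate numbers are those of the titles. The smallest whole reads that fit the TPM steps within 0.001 were found for 17574 of 17574 features above 0, so read numbers are lower limits.

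Values were taken as log2(TPM + 1) and fitted with limma 3.58.1 in R 4.3.3 (eBayes with trend, two-sided), after a check of the fit on simulated data. Coordinates and GC content came from GENCODE M21 (GRCm38, as mm10), with GC content for 99.3% of tested genes. The 34 genes and all lists were chosen with earlier results of these data known. Values in every heart are given for the 6 genes with the smallest p, the 4 largest changes each way, Pecam1, Cdh5, Kdr, Tie1 and the Apln and Dll4 pairs. Of each other list up to 2 genes with the smallest p are named; 1 further marker list is not reported here. Promoters follow the same order of p. Single-heart values of S1pr1, Ramp2, Eng, Robo4 and listed genes, and Ly6c2, were added after the values were seen. Each mouse is a replicate, and no label gives batches. The 16 alternatives changed the pseudocount, filter, scaling, weights, variance trend, read model (voom), GC term or replicate block, or left out 1 heart.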

Additional observations from a re-analysis of the deposited data

How the results depend on the processing

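Over all tested genes the number called higher (15) was 5 without a filter on low values, 25 with the replicate block and 4 to 23 when each heart was left out in turn. The number called lower (2) was 1 without a filter, 1 with a filter at 5 TPM, 1 with quantile normalization, 4 with array weights and 0 to 4 when each heart was left out. None of the 34 endothelial genes was called by limma under any of the 16 alternatives. Their median change ran from -0.40 without Paro/Neo replicate 3 to -0.096 without Paro/Neo replicate 1, and 26 to 30 were below 0. With array weights the median was -0.17, and these weights were 0.26 for Paro/Neo replicate 1 and 0.91 to 2.21 for the other hearts. The filter at 5 TPM left 32 of the 34.

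Of 542 single values under the alternatives 10 turned in sign. With the GC correction Emcn was at -0.0087 and Egfl7 at 0.012, and with array weights Icam1 was at 0.064. When each heart was left out, Emcn ran from -0.016 to 0.15 (-0.0061 without the Paro/Neo replicate numbered 3), Eng from -0.44 to 0.057, Icam1 from -0.40 to 0.16, Notch1 from -0.41 to 0.040, Sox18 from -0.27 to 0.029 and Erg from -0.16 to 0.068. Among the other lists, the apelin, adrenomedullin and S1P median was -0.14 with the filter at 5 TPM and -0.14 to -0.025 leaving out each heart. The leukocyte adhesion partners median was -0.078 with that filter, 0.0079 with array weights and -0.020 to 0.058 leaving out each heart. Of the 7 mesothelial markers 2 were tested, with a median of -0.63. That median was -0.83 with a pseudocount of 0.1 and with voom. It was -0.16 without a filter, where untested markers of the list enter. With the filter at 5 TPM it was -0.81, the lower of the 2 single changes, that of Aldh1a2. This gene passed that filter only through its vehicle hearts, so a change below 0 was fixed in advance there. A changed filter thus changes which genes of a list are counted, and the cause of the other shifts was not tested.

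Same-numbered hearts deviated with correlations of -0.053, -0.036 and -0.12, and none of the 6 hearts correlated best with its own number, so the numbers were not taken to pair the mice. With the replicate block 0 of the 34 genes were called, 29 were below 0 and the median was -0.29. Inferred reads were fewest for Sox17, at 40 in its lowest library, which is a lower limit.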

Other observations

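Several of the 34 endothelial genes are neighbours on a chromosome. Pecam1 and Icam2 lie 266.1 kb apart on chromosome 11, and both had all treated hearts below all vehicle hearts, with changes of -0.31 and -0.47. S1pr1 and Vcam1, 394.9 kb apart on chromosome 3, had changes of -0.22 and 0.28. Notch1 and Egfl7, 63.4 kb apart on chromosome 2, had changes of -0.22 and -0.046. Esam and Robo4, 113.0 kb apart on chromosome 9, had changes of -0.37 and -0.32. These pairs were noticed after the values were seen, and no relation was tested.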
